A study of Mus musculus with 30 samples.

Results

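The unfolded protein response and the chaperones of the endoplasmic reticulum (ER) were followed in 4T1 cells, a mouse mammary carcinoma line, across 6 groups of RNA-seq libraries. The 36 genes were chosen by symbol as sensors, regulators, chaperones, folding enzymes, degradation factors and transport factors of the ER. The choice was made with earlier results of these data known. All 36 were among the 39253 genes of the deposited count table, and all 36 passed the filter on low counts that left 13008 genes for testing. The cells had been cultured for 48 or 72 h with small extracellular vesicles (sEVs), which are membrane particles released by cells. They were made by primary Ly6G+ neutrophils of wild-type female BALB/c mice, kept for 48 h with 10 µM 27-hydroxycholesterol (27HC), a cholesterol metabolite, or with its solvent DMSO. The libraries came from non-adherent 4T1 cells given 27HC-sEVs for 72 h (4 libraries) and 48 h (5 libraries), and adherent 4T1 cells given 27HC-sEVs for 72 h and 48 h (5 libraries each). Adherent 4T1 cells given DMSO-sEVs for 72 h and 48 h (5 libraries each) completed the set. Every group thus received neutrophil vesicles in medium with vesicle-depleted serum, and no vesicle-free cells and no non-adherent DMSO-sEV cells are described here. All cells were of 1 line, and the labels do not say whether replicates were separate cultures or vesicle preparations. The p-values therefore reflect library-to-library spread alone, part or all of which may be technical.

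As background, proteins that enter the ER fold there with the help of Hspa5 (BiP), the lumenal HSP70, and of lectin chaperones and disulfide isomerases. When unfolded proteins accumulate, 3 membrane sensors, encoded by Ern1 (IRE1α), Eif2ak3 (PERK) and Atf6, start the unfolded protein response. Ern1 splices Xbp1 mRNA into the form that encodes an active transcription factor, Eif2ak3 phosphorylates the translation factor eIF2α, and Atf6 is cleaved to release a transcription factor. The targets of these arms include chaperones and the machinery of ER-associated degradation, which returns misfolded proteins to the cytosol for the proteasome. The gene-level counts used here do not tell spliced from unspliced Xbp1 mRNA and do not measure sensor activity.

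XBP1 and ATF6 are known to act through short promoter elements, which are shown first because some members carry them and some do not. The ER stress response element (ERSE) was searched as CCAAT, 9 bases of any kind and CCACG, on both strands of RefSeq promoter windows (GRCm38.p6) that run from 250 bases before to 50 bases after the annotated start. A window was found for 31 of the 36 members, and none for Hyou1, Manf, Atf6, Derl1 and Sec61a1. The element was present in 8 of those 31 members (25.8%), against 37 of all 27025 genes with a window (0.137%). The members were chosen as genes of the response in which such elements are known to act, so these shares are description and not a test. The matches are written from the CCAAT end, with both ends in capitals and the spacer in lower case. In Creld2, Calr and the second Hsp90b1 match the element lies on the strand opposite to the gene.
Hspa5: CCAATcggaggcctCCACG
Hsp90b1, first match: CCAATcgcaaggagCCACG
Hsp90b1, second match: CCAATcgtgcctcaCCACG
Dnajc3: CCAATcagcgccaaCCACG
Creld2: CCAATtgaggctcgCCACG
Calr: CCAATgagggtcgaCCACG
Canx: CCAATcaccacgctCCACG
Pdia6: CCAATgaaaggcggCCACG
Syvn1: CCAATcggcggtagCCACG

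Of these 8 genes, 6 encode lumenal or lectin chaperones and cofactors (Hspa5, Hsp90b1, Dnajc3, Creld2, Calr, Canx), Pdia6 encodes a disulfide isomerase and Syvn1 the ubiquitin ligase HRD1. A second form, ERSE-II, was searched as ATTGG, 1 base and CCACG. It was found in Dnajb11 and Herpud1, and in 0.0365% of all windows. The UPR element TGACGTGG, whose CGTGG end is the other strand of the CCACG end of both ERSE forms, was found in Sec24d and in 0.676% of all windows. The C/EBP-ATF response element, through which the PERK arm is known to act, was searched as TGATG, 1 base and AA. Among the members it was found in Herpud1, and it was present in 3.97% of all windows. Upstream sequences of 1 gene with the ERSE and 1 with the ERSE-II are printed here from 250 bases before the start up to the start. Capitals mark the ERSE in Hspa5, and in Herpud1 the C/EBP-ATF response element, which lies on the opposite strand, followed by the ERSE-II.
Hspa5 chr2:34771840-34772089 (+ strand): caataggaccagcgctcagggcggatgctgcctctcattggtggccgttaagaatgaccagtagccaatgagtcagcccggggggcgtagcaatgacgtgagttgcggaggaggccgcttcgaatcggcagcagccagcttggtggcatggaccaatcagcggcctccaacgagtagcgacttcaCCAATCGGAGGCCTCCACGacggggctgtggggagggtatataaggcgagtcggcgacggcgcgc
Herpud1 chr8:94386179-94386428 (+ strand): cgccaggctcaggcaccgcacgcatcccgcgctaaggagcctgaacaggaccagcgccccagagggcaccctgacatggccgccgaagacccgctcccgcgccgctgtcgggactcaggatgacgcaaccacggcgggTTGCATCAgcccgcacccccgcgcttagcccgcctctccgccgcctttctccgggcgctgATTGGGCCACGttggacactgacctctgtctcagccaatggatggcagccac
A match describes the letters in these windows and does not show that a factor bound there. A missing match means only that these exact letters were absent from the window, since inexact forms and other regions were not searched.

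Libraries held between 18.8 and 31.4 M reads. CPM are read counts scaled to library size, for the members with TMM factors and for the markers without. The 6 mammary epithelial markers summed to 2976 to 3484 CPM in adherent 27HC-sEV cells and 3775 to 4469 CPM in adherent DMSO-sEV cells at 48 h. At 72 h the sums were 2493 to 2846 and 3290 to 3706 CPM, lower in 27HC-sEV cells without overlap at both times. In non-adherent 27HC-sEV cells they were 3020 to 3227 CPM at 48 h and 2309 to 2481 CPM at 72 h, below all adherent 27HC-sEV libraries at 72 h. In adherent cells Krt8, Krt18 and Krt7 were lower with 27HC-sEVs than with DMSO-sEVs at both times. Krt19 was higher, at 96.4 against 52.7 CPM at 48 h and 85.8 against 51.6 CPM at 72 h. Cdh1 stood at 354 against 427 CPM at 48 h and 338 against 197 CPM at 72 h, and Epcam at 321 against 320 CPM at 72 h. Of 12 neutrophil markers 1 passed the filter, and Ly6g, Mpo, Elane, Csf3r and Mmp8 were at 0 in every library. The 12 summed to 0.158 to 0.886 CPM in adherent 27HC-sEV cells and 0.0939 to 0.411 CPM in adherent DMSO-sEV cells at 48 h, and to 1.34 to 1.93 and 0.308 to 0.853 CPM at 72 h, apart at 72 h, where S100a8 averaged 1.14 CPM in adherent 27HC-sEV cells and 0.266 CPM in adherent DMSO-sEV cells. The 6 macrophage markers summed to 6.21 to 9.24 CPM in adherent 27HC-sEV cells and 2.80 to 3.73 CPM in adherent DMSO-sEV cells at 48 h. At 72 h the sums were 10.3 to 13.5 and 1.93 to 3.85 CPM, with Adgre1 and C1qa at 0 throughout. The 4 fibroblast markers summed to 13.0 to 18.9 CPM in adherent 27HC-sEV cells against 9.68 to 12.4 CPM in adherent DMSO-sEV cells at 48 h, and to 18.7 to 23.7 against 5.14 to 6.40 CPM at 72 h. Pdgfra carried that sum, while Col1a1 averaged 0.234 CPM in adherent 27HC-sEV cells and 0.371 CPM in adherent DMSO-sEV cells at 72 h, and Lum was at 0 in all adherent libraries. Their part in the results on the members was not tested.

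The DMSO-sEV libraries fell into 2 sets in the levels of most members. Replicates 1 to 3 were all above replicates 4 and 5 for 31 of the 36 members at 48 h (86.1%, against 31.3% of all genes tested) and for 30 of 36 at 72 h (83.3%, against 38.6%). The median log2 ratio of replicates 1 to 3 over replicates 4 and 5 was 0.36 over the members and 0.023 over all genes at 48 h, and 0.503 and 0.07 at 72 h. Hspa5 shows the split, with 2087, 2068, 1997, 1578 and 1389 CPM in DMSO-sEV replicates 1 to 5 at 48 h and 2000.5, 2039, 1761, 1315 and 1263 CPM at 72 h. The sets also stood apart in the Spearman correlation, over 10764 genes with a length, between transcript length and a library's deviation from the mean of all libraries. It was -0.308 to -0.164 in replicates 1 to 3 and 0.134 to 0.166 in replicates 4 and 5 at 48 h, and -0.544 to -0.502 and -0.191 to -0.156 at 72 h, and its part in the split was not tested. The labels give no batch for the split. The calls of the members and of the related lists against DMSO-sEV cells are therefore also given against either set alone. Counts against either set alone come without the share of all genes called in that run, so they are not read against a background.

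Levels per length were compared in adherent 27HC-sEV cells at 48 h, where Hspa5 was the most abundant member at 559.6 ± 44.2 CPM per kb of its longest transcript (mean ± SD, n = 5). Hsp90b1, the lumenal HSP90, followed at 308 CPM per kb. Calr, the soluble lectin chaperone calreticulin, stood at 304, P4hb, the archetypal disulfide isomerase, at 297 and Pdia3, the isomerase that works with the lectins, at 216 CPM per kb. The sensors sat far lower on this scale, at 14.5 for Atf6, 8.10 for Eif2ak3 and 6.57 for Ern1. Xbp1 stood at 57.1 CPM per kb, and Creb3l2, an ER membrane-bound transcription factor, was lowest at 2.09.

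**Figure D1:**
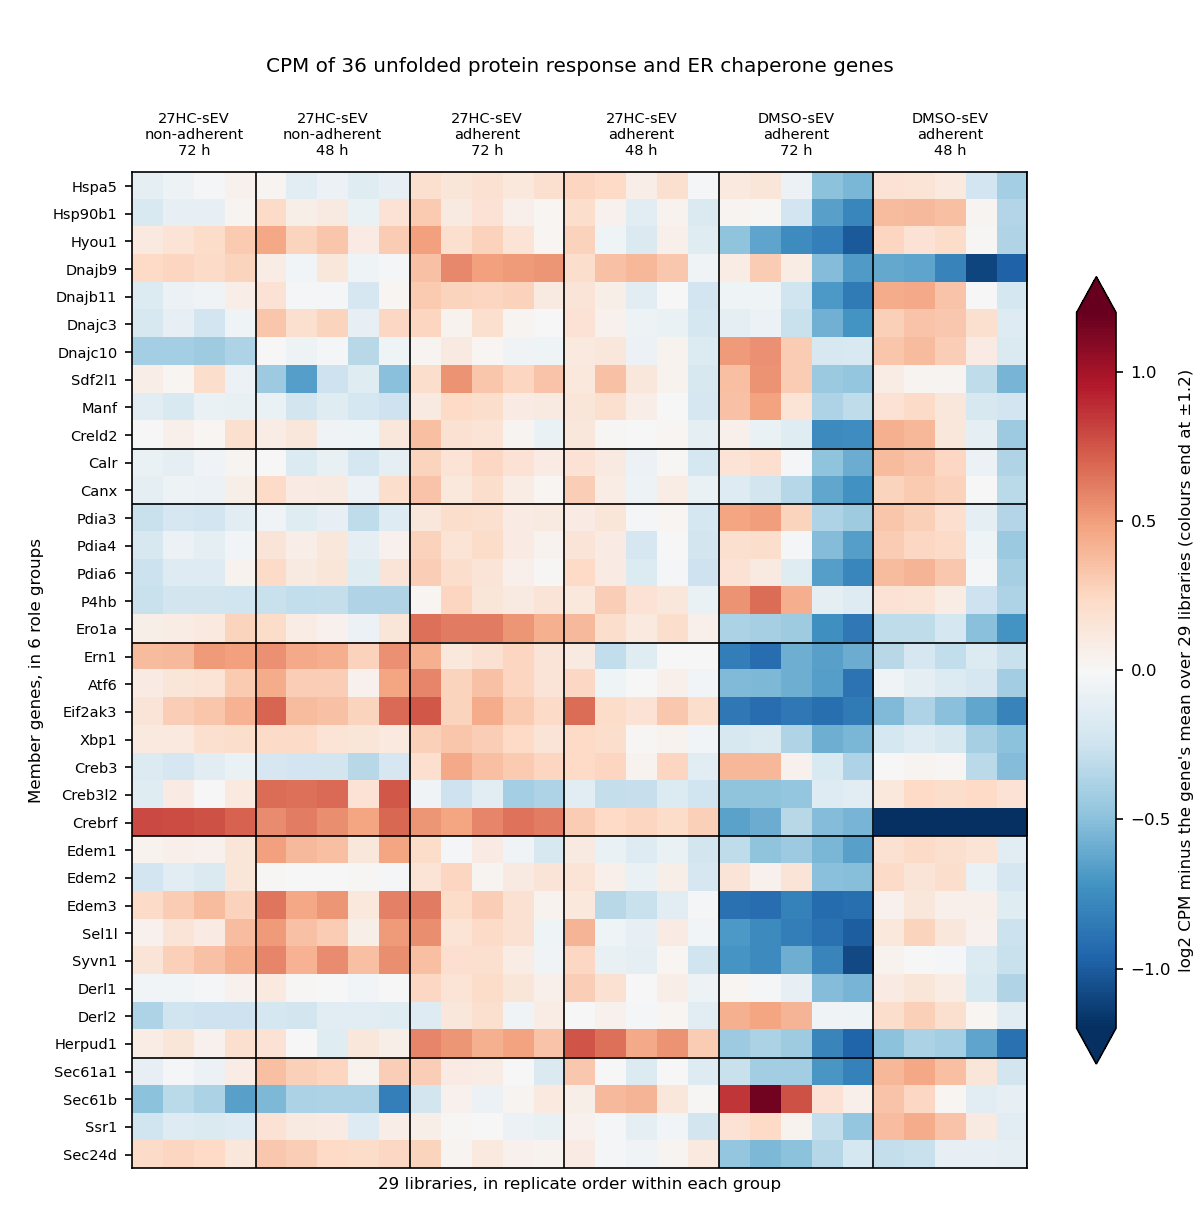
Each row is 1 of the 36 members, grouped by role, and each column 1 of the 29 libraries. Colours give the log2 CPM of a library minus the member's mean over all libraries and end at ±1.2. The 5 DMSO-sEV libraries at 48 h lie below that end for Crebrf, and the lumenal chaperones are paler or bluer in DMSO-sEV replicates 4 and 5 than in replicates 1 to 3.

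The first comparison asks how adherent 4T1 cells given vesicles of 27HC-exposed neutrophils differ from adherent cells given DMSO-sEVs at 48 h. 7 members were higher with the libraries of the groups apart (14.9% of all genes), namely Crebrf, Herpud1, Dnajb9, Eif2ak3, Ero1a, Xbp1 and Sec24d. The abundant chaperones, by contrast, did not pass the test. In all, 9 members were higher and 3 lower by edgeR's quasi-likelihood test at an adjusted p under 0.05, against 21.3% of all genes higher and 22.7% lower. The median log2 fold change was -0.027 over the members and -0.002 over all genes. In bulk RNA, fewer cells of a kind and less RNA per cell cannot be told apart.

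Among sensors and regulators, 5 of 7 were higher and 1 lower at 48 h. Crebrf, whose protein is known to restrain the transcription factor Creb3, had 65.2, 62.5, 63.1, 61.6 and 64.6 CPM in adherent 27HC-sEV cells, against 17.7, 17.9, 19.7, 18.6 and 19.7 CPM in adherent DMSO-sEV cells. The groups were wide apart, and the log2 fold change was 1.76 (SE 0.0537, adjusted p = 1.44e-20), or 3.39-fold. Eif2ak3 had 46.3, 33.8, 32.7, 36.3 and 33.6 CPM in adherent 27HC-sEV cells, against 20.1, 22.4, 20.5, 18.9 and 16.6 CPM in adherent DMSO-sEV cells. Every 27HC-sEV library lay above every DMSO-sEV library, with replicate 1 the highest, and the log2 fold change was 0.89 (SE 0.105, adjusted p = 5.12e-08). Xbp1 had 134, 131, 115, 117 and 111 CPM in adherent 27HC-sEV cells and 97.6, 102, 98.9, 86.2 and 80.8 CPM in adherent DMSO-sEV cells. These groups did not overlap either, with 0.38 (SE 0.0730, adjusted p = 8.75e-05) on the log2 scale.

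The sensors Ern1 and Atf6 moved less. Ern1 had 51.2, 38.9, 43.04, 47.6 and 47.4 CPM in adherent 27HC-sEV cells and 37.7, 41.5, 38.8, 42.5 and 39.5 CPM in adherent DMSO-sEV cells. Atf6 had 120.3, 97.9, 101, 105 and 98.8 CPM in adherent 27HC-sEV cells and 97.97, 94.2, 90.4, 88.01 and 75.7 CPM in adherent DMSO-sEV cells. Both pairs of groups overlapped, and the log2 fold changes were 0.19 (SE 0.0734, adjusted p = 0.0337) for Ern1 and 0.23 (SE 0.0859, adjusted p = 0.0299) for Atf6. Atf6 was not called with offsets for length and GC content (0.18, adjusted p = 0.127). Creb3l2 was the regulator that fell, with 15.7, 14.1, 14.2, 15.4 and 14.5 CPM in adherent 27HC-sEV cells and 18.8, 20.3, 19.8, 20.3 and 19.4 CPM in adherent DMSO-sEV cells. Its groups did not overlap, and the log2 fold change was -0.41 (SE 0.0928, adjusted p = 0.000561). Creb3, a relative of Creb3l2 anchored in the ER membrane, stood at 0.28 (adjusted p = 0.0527), and 12 of 20 alternative runs called it higher.

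Chaperones and folding enzymes split at 48 h between 2 members that rose and 15 that did not pass the test. Dnajb9 (ERdj4), a BiP cochaperone that is known to hold Ern1 in check, had 32.7, 36.03, 37.3, 35.3 and 27.5 CPM in adherent 27HC-sEV cells, against 18.4, 18.2, 16.2, 13.2 and 14.4 CPM in adherent DMSO-sEV cells. The groups did not overlap, and the log2 fold change was 1.06 (SE 0.128, adjusted p = 8.55e-08). Ero1a, the oxidase that recharges disulfide isomerases, averaged 163 ± 14.7 CPM in adherent 27HC-sEV cells and 108 ± 14.4 CPM in adherent DMSO-sEV cells (SD, n = 5 each), at a log2 ratio of 0.60 (SE 0.0897, adjusted p = 2.98e-06). Hspa5 had 2209, 2178, 1955, 2109 and 1823 CPM in adherent 27HC-sEV cells, against the DMSO-sEV values given above. The DMSO-sEV values of replicates 1 to 3 lay within the 27HC-sEV range and those of replicates 4 and 5 below it, and the log2 fold change was 0.17 (SE 0.111, adjusted p = 0.221). The other chaperones, lectins and isomerases had log2 fold changes between -0.25 (Dnajb11, ERdj3) and 0.22 (Sdf2l1). None of the 8 members with the ERSE passed the test by edgeR (log2 fold changes -0.23 to 0.17). At an unadjusted p under 0.05, 1 of them was lower, and DESeq2 called 0.

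In ER-associated degradation and transport, Herpud1, an ER membrane scaffold of the HRD1 complex, had 68.7, 64.5, 55.97, 59.3 and 50.4 CPM in adherent 27HC-sEV cells and 29.02, 31.4, 30.8, 26.3 and 21.97 CPM in adherent DMSO-sEV cells. The groups did not overlap, and the log2 fold change was 1.1 (SE 0.101, adjusted p = 5.08e-10), or 2.14-fold. Edem1, which helps to pass misfolded glycoproteins on for degradation, was lower at -0.21 (adjusted p = 0.0306). Of the transport genes, Sec24d, a cargo adaptor of the COPII coat, was higher at 0.21 (adjusted p = 0.0041), and Ssr1, a subunit of the translocon-associated complex, was lower at -0.30 (adjusted p = 0.0192). The other 6 degradation genes and both Sec61 subunits did not pass the test.

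Against either set of DMSO-sEV replicates at 48 h, Crebrf, Herpud1, Dnajb9, Eif2ak3, Ero1a, Xbp1 and Sec24d stayed higher and the call of Creb3l2 as lower was kept. The 17 chaperones, lectins, isomerases and the oxidase instead gave 2 higher and 10 lower against DMSO-sEV replicates 1 to 3 (median log2 fold change -0.27). Against replicates 4 and 5 9 were higher and the others were not called (0.24). Calr, for example, stood at -0.32 (adjusted p = 0.000222) against replicates 1 to 3 and at 0.23 (adjusted p = 0.0329) against replicates 4 and 5. The calls of Ern1, Atf6, Edem1 and Ssr1 were lost when single libraries were left out: Ern1 without DMSO-sEV replicate 1, 3 or 5 or 27HC-sEV replicate 1, 4 or 5 (0.15 to 0.19, adjusted p 0.0544 to 0.116) and Atf6 without DMSO-sEV replicate 4 or 5 or 27HC-sEV replicate 1 (0.18 to 0.23, adjusted p 0.0517 to 0.109). Edem1 lost its call without any 1 of DMSO-sEV replicates 1 to 4 or 27HC-sEV replicates 2, 3 and 5 (-0.21 to -0.17, adjusted p 0.0544 to 0.12), and Ssr1 without DMSO-sEV replicate 1 or 2 or 27HC-sEV replicate 5 (-0.27 to -0.23, adjusted p 0.053 to 0.0993).

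**Figure D2:**
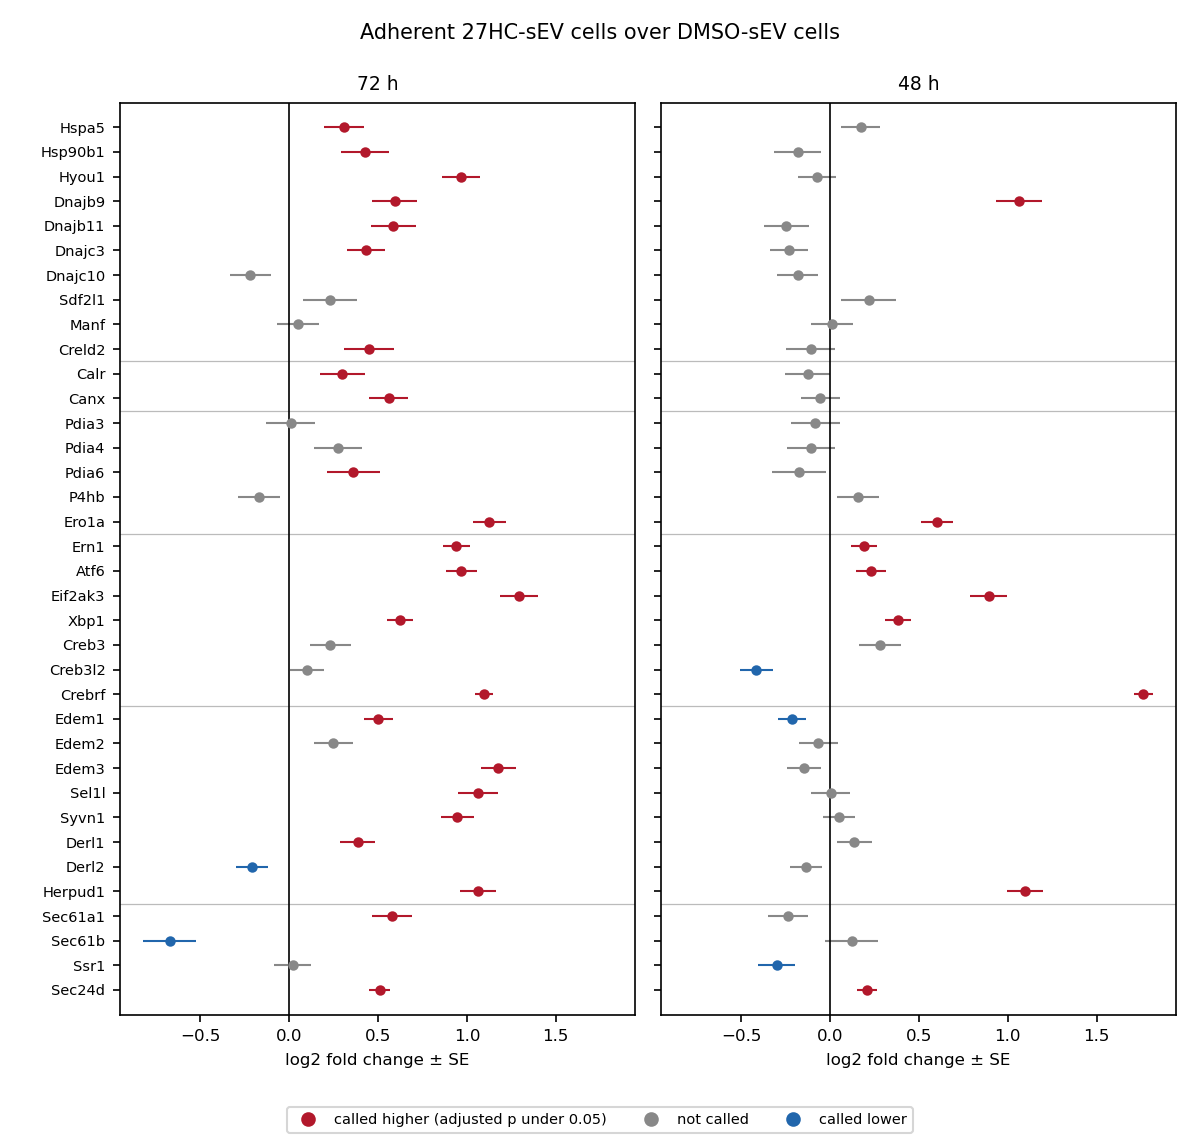
Points are log2 fold changes of adherent 27HC-sEV cells over adherent DMSO-sEV cells for the 36 members, grouped by role, at 72 h on the left and 48 h on the right, with bars of ±1 SE; red points were called higher and blue points lower at an adjusted p under 0.05, and grey points were not called. At 72 h 24 red points lie above 0 and the blue points of Sec61b and Derl2 below, and at 48 h Crebrf reaches 1.76 while most folding genes lie near 0.

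At 72 h the same comparison asks how far these genes differ after another day. Members of every role were higher in adherent 27HC-sEV cells: 24 were higher and 2 lower by edgeR's test, against 32% of all genes higher and 33.4% lower. The libraries of the groups were apart for 19 of the members that were higher, against 21.7% of all genes. The median log2 fold change was 0.441 over the members and 0.002 over all genes. By role, 7 of 10 chaperones and cofactors, both lectins, 2 of 5 isomerases and oxidase, 5 of 7 sensors and regulators, 6 of 8 degradation genes and 2 of 4 transport genes were higher.

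All 3 sensors and Xbp1 were higher at 72 h, each without overlap. Eif2ak3 had 48.6, 34.96, 39.5, 36.1 and 33.9 CPM in adherent 27HC-sEV cells, against 15.96, 15.4, 15.99, 15.5 and 16.1 CPM in adherent DMSO-sEV cells. The DMSO-sEV libraries lay close together below the lowest 27HC-sEV library, and the log2 fold change was 1.29 (SE 0.106, adjusted p = 2.91e-11), or 2.45-fold. Ern1 had 64.1, 52.03, 53.99, 56.9 and 53.1 CPM in adherent 27HC-sEV cells and 26.8, 25.3, 31.8, 30.3 and 31.6 CPM in adherent DMSO-sEV cells. Atf6 had 152, 122, 129, 121 and 113 CPM in adherent 27HC-sEV cells and 70.01, 69.6, 67.3, 63.9 and 54.9 CPM in adherent DMSO-sEV cells. Neither overlapped, and the log2 fold changes were 0.94 (SE 0.0743, adjusted p = 1.24e-11) for Ern1, or 1.92-fold, and 0.97 (SE 0.0869, adjusted p = 1.59e-10) for Atf6, or 1.96-fold. Xbp1 had 138, 143, 139, 134 and 126 CPM in adherent 27HC-sEV cells and 99.2, 101, 88.5, 75.6 and 77.7 CPM in adherent DMSO-sEV cells, which gave a fold change on the log2 scale of 0.62 (SE 0.0732, adjusted p = 2.73e-08). Crebrf had 76.5, 73.2, 79.3, 82.7 and 80.9 CPM in adherent 27HC-sEV cells and 33.9, 35.05, 41.8, 36.9 and 35.9 CPM in adherent DMSO-sEV cells. It was again far apart between the groups, at 1.1 (SE 0.0515, adjusted p = 2.26e-16). Creb3 (0.23, adjusted p = 0.0802) and Creb3l2 (0.099, adjusted p = 0.366) did not pass the test.

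Degradation genes stood high at 72 h. Edem3, a mannosidase that trims glycoproteins for degradation, had 61.9, 46.7, 49.3, 45.5 and 41.3 CPM in adherent 27HC-sEV cells and 21.6, 21.4, 22.9, 21.1 and 21.4 CPM in adherent DMSO-sEV cells. Every 27HC-sEV library was above every DMSO-sEV library, and the log2 fold change was 1.18 (SE 0.0980, adjusted p = 3.6e-11). Sel1l and Syvn1, the adaptor and the ligase of the HRD1 complex, were higher at 1.06 (adjusted p = 3.13e-09) and 0.95 (adjusted p = 7.76e-10). Herpud1 averaged 56.7 ± 3.60 CPM in adherent 27HC-sEV cells and 27.3 ± 4.70 CPM in adherent DMSO-sEV cells, which gave a fold change on the log2 scale of 1.06 (SE 0.102, adjusted p = 5.57e-10). Edem1 (0.50) and Derl1 (0.39), a derlin of the retrotranslocation channel, were also higher. Its relative Derl2 was lower at -0.21 (adjusted p = 0.0435), and Edem2 did not pass the test (0.25, adjusted p = 0.05). Over 20 alternative runs Derl2 was called lower in 9 and Edem2 higher in 11.

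The median log2 fold change at 72 h was 0.36 over the 17 folding genes, 0.941 over the 7 sensors and regulators and 0.723 over the 8 degradation genes. Ero1a was the highest folding gene, with 224, 219, 219, 205 and 191 CPM in adherent 27HC-sEV cells and 109, 107, 105, 85.04 and 78.5 CPM in adherent DMSO-sEV cells. Its groups were apart, with 1.13 (SE 0.0904, adjusted p = 1.7e-11) on the log2 scale. Hyou1, a nucleotide exchange factor for BiP, averaged 204 ± 25.2 CPM in adherent 27HC-sEV cells and 104 ± 14.3 CPM in adherent DMSO-sEV cells, which gave a fold change on the log2 scale of 0.97 (SE 0.108, adjusted p = 1.02e-08). Hspa5 had 2104, 2044, 2096, 2018 and 2104 CPM in adherent 27HC-sEV cells, against the DMSO-sEV values given above, which gave a fold change on the log2 scale of 0.31 (SE 0.111, adjusted p = 0.0175). DMSO-sEV replicate 2 lay inside the narrow range of the 27HC-sEV libraries, replicates 1 and 3 below it, and replicates 4 and 5 furthest below. The BiP cochaperones Dnajb9 (0.59), Dnajb11 (0.59) and Dnajc3 (0.43) were higher, as were Hsp90b1 (0.43), the secreted factor Creld2 (0.45), the lectins Canx (0.56) and Calr (0.30), and Pdia6 (0.36). The reductase Dnajc10 (-0.22), Sdf2l1 (0.23), the secreted factor Manf (0.048) and the isomerases Pdia3 (0.0076), Pdia4 (0.27) and P4hb (-0.17) did not pass the test.

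The 2 Sec61 translocon subunits parted at 72 h. Sec61a1, the channel, averaged 159 ± 18.7 CPM in adherent 27HC-sEV cells and 107 ± 16.2 CPM in adherent DMSO-sEV cells, which gave a fold change on the log2 scale of 0.58 (SE 0.114, adjusted p = 7.05e-05). Sec61b, a small accessory subunit with the shortest transcript among the members (723 nt), averaged 73.1 ± 6.37 CPM and 117 ± 36.5 CPM in the same groups, which gave a fold change on the log2 scale of -0.67 (SE 0.147, adjusted p = 0.00025). Log2 fold change and transcript length had a Spearman correlation of 0.37 over the members and 0.37 over all genes at 72 h, and with offsets for length and GC content Sec61b stood at -0.22 (adjusted p = 0.00349). With these offsets 29 members were higher and 3 lower, the median over sensors and regulators was 0.70, and Derl2 was not called (-0.098, adjusted p = 0.282). The share of all genes called with the offsets is not given here. Sec24d was higher at 0.51, and Ssr1 did not pass the test (0.019).

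All 8 members with the ERSE were higher at 72 h (0.30 to 0.95, median 0.43), and so were 12 of the 23 members whose window lacks it (2 lower, median 0.50). Of 8 other tested genes with an ERSE in their window, 3 were higher and 1 lower. Against DMSO-sEV replicates 1 to 3 alone, 5 of the 8 members were higher at 72 h, and 6 were lower at 48 h. Against replicates 4 and 5 alone, all 8 were higher at 72 h, and 3 were higher at 48 h.

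**Figure D3:**
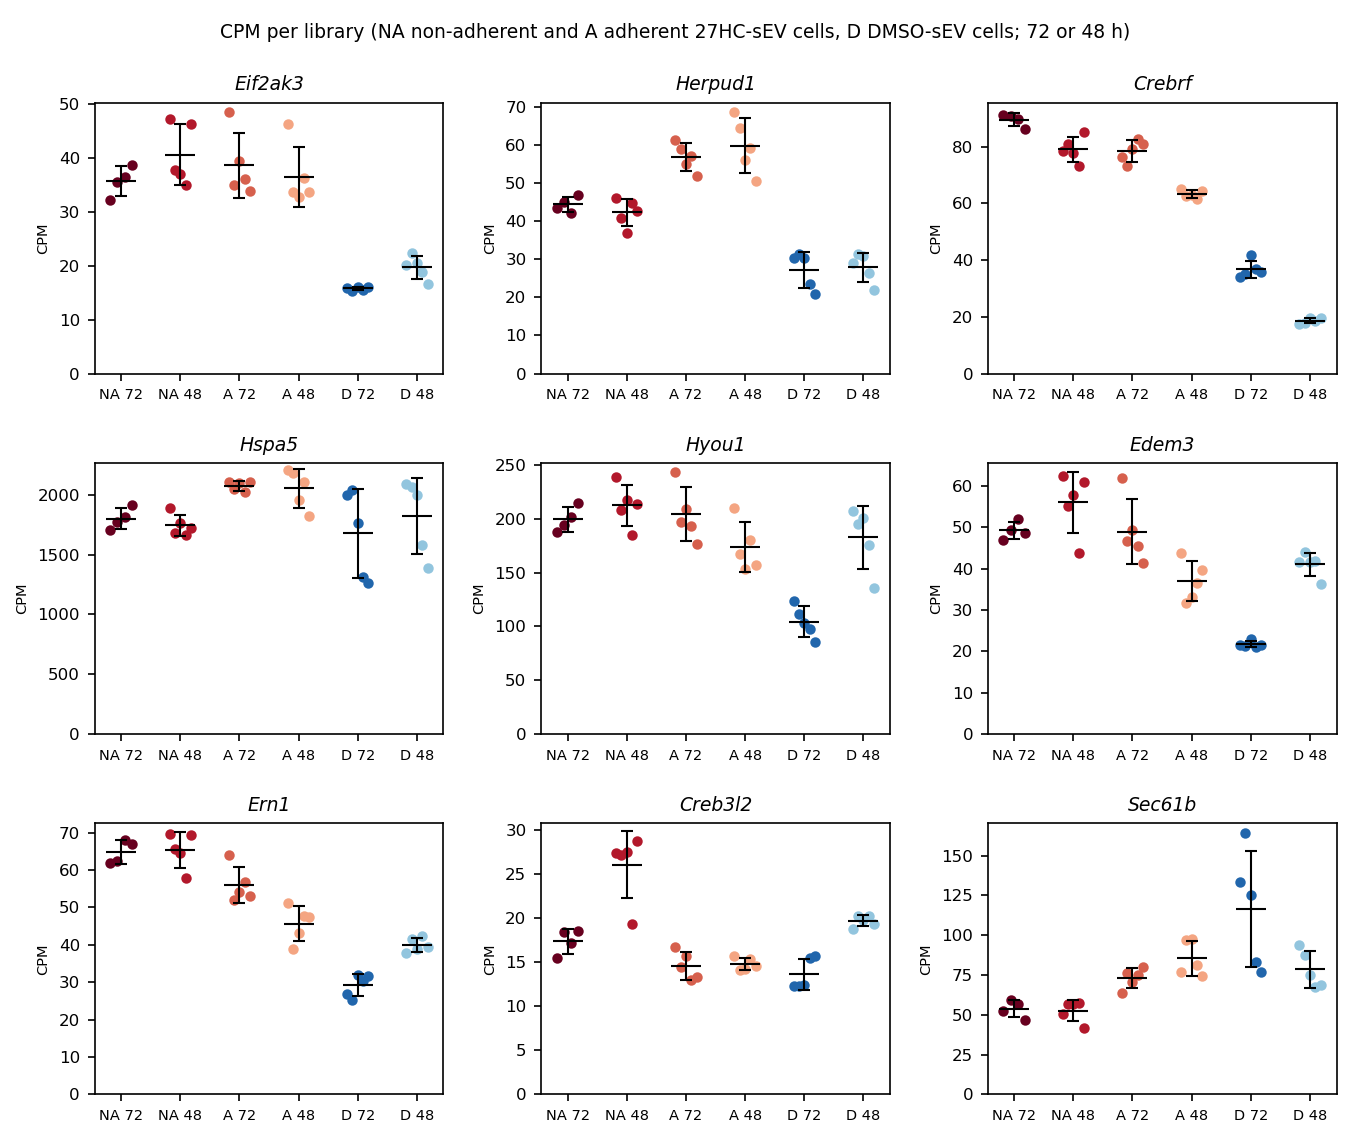
CPM of 9 members in every library, with group means and SD as bars, from left to right for non-adherent 27HC-sEV cells (NA), adherent 27HC-sEV cells (A) and adherent DMSO-sEV cells (D), each at 72 h and then 48 h. The DMSO-sEV points lie below all others for Eif2ak3 and Crebrf, and Hspa5 shows 2 low DMSO-sEV points at each time.

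Against either DMSO-sEV set at 72 h, 21 of the 24 calls were kept, and Hspa5, Calr and Pdia6 were the exceptions. Hspa5 stood at 0.10 (adjusted p = 0.114) against DMSO-sEV replicates 1 to 3 and at 0.70 (adjusted p = 6.13e-09) against replicates 4 and 5. Calr stood at 0.07 and 0.74, and Pdia6 at 0.099 and 0.89. The 17 folding genes gave 8 higher and 4 lower against replicates 1 to 3 (median 0.10), and 17 higher against replicates 4 and 5 (0.81). Eif2ak3, Edem3 and Ern1 kept closer values, with Eif2ak3 at 1.29 and 1.31, Edem3 at 1.16 and 1.22, and Ern1 at 1.0 and 0.88. Sec61b stood at -0.95 and -0.11, the second not called (adjusted p = 0.443). Over all 20 alternative runs, Ern1 ran more widely, from 0.55 to 1.0, and Atf6 from 0.70 to 1.12. Eif2ak3 ran from 1.09 to 1.34 and Edem3 from 1.08 to 1.23, and these 4 members were called in every run. With single libraries left out, Hspa5 lost its call without DMSO-sEV replicate 4 (0.23, adjusted p = 0.0639) or 5 (0.22, adjusted p = 0.0698), Calr without DMSO-sEV replicate 4 or 5 or any of 27HC-sEV replicates 1 to 4 (adjusted p 0.0527 to 0.15) and Pdia6 without DMSO-sEV replicate 4 or 5 or any of 27HC-sEV replicates 1 to 3 (adjusted p 0.0572 to 0.133). Derl2 lost it without any of DMSO-sEV replicates 1 to 3 or 27HC-sEV replicates 1, 4 and 5 (-0.22 to -0.14, adjusted p 0.053 to 0.204).

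**Figure D4:**
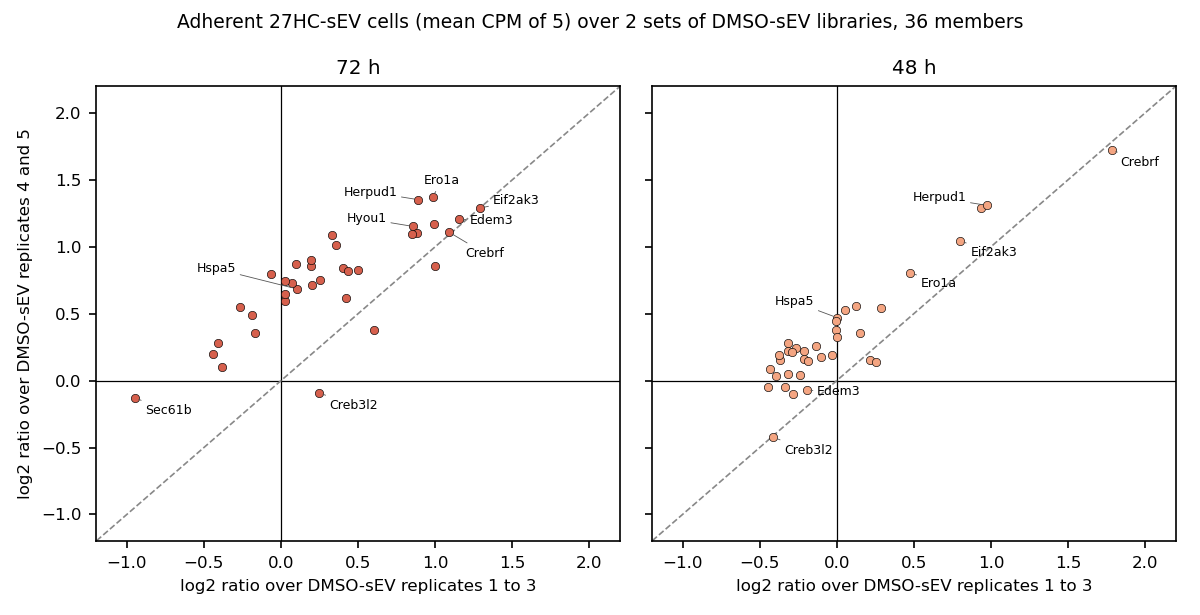
Each point is 1 member; the x axis gives the log2 ratio of mean CPM in the 5 adherent 27HC-sEV libraries over DMSO-sEV replicates 1 to 3, and the y axis that over DMSO-sEV replicates 4 and 5, at 72 h on the left and 48 h on the right. Most points lie above the diagonal; Crebrf lies near it at both times, Eif2ak3 at 72 h, and Hspa5 lies above it at both times.

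Whether the adherent difference itself differed between 72 and 48 h was tested as an interaction. The signed log2 fold change was higher at 72 h than at 48 h for 18 members and lower for 3, against 15.9% of all genes in the first direction and 21.4% in the second. Against DMSO-sEV replicates 1 to 3 alone these counts were 23 and 4 members, and against replicates 4 and 5 alone 23 and 1. The shares of all genes called against either set alone are not given here, so these counts are not read against a background. The 3 smallest adjusted p-values belonged to Edem3, with a difference of log2 fold changes of 1.32 (SE 0.137, adjusted p = 7.17e-08), Crebrf, with -0.66 (SE 0.0735, adjusted p = 1.86e-07), and Ern1, with 0.75 (SE 0.104, adjusted p = 3.66e-06). Over 30 alternative runs Ern1 ran from 0.41 to 0.79, Edem3 from 1.22 to 1.39 and Crebrf from -0.7 to -0.58, and each kept its call. The fold change of Edem3 was 1.18 at 72 h and -0.15 at 48 h, where it was not called (adjusted p = 0.223), and that of Crebrf was smaller at 72 h than at 48 h. Hyou1 (1.04), Sel1l (1.06) and Syvn1 (0.90) were also among the 18, and Dnajb9 (-0.47) and Sec61b (-0.79) were the other members with a lower value at 72 h. Sec61b went from 0.12 at 48 h, not called, to -0.67 at 72 h. Creb3l2, among the 18, went from -0.41 at 48 h to 0.099 at 72 h, not called. In the calls themselves, 9 members were higher at both times, 14 were higher at 72 h without a call at 48 h, and Edem1 was higher at 72 h and lower at 48 h.

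Levels over time are given here within each vesicle treatment, on the same libraries. In adherent DMSO-sEV cells, 4 members were higher and 18 lower at 72 h than at 48 h, against 27.8% of all genes higher and 23.8% lower. Edem3 had 21.6, 21.4, 22.9, 21.1 and 21.4 CPM at 72 h and 41.5, 44, 41.7, 41.8 and 36.2 CPM at 48 h in these cells. Every 72 h library was below every 48 h library, with -0.92 (SE 0.0984, adjusted p = 3.13e-08) on the log2 scale. Sel1l (-0.91, SE 0.111, adjusted p = 2.62e-07) and Hyou1 (-0.81, SE 0.108, adjusted p = 9e-07) were the next lowest. The 3 largest rises were those of Crebrf (0.97, SE 0.0539, adjusted p = 8.98e-13), Dnajb9 (0.71, SE 0.130, adjusted p = 6.03e-05) and Sec61b (0.57, SE 0.147, adjusted p = 0.00215). Sec61b averaged 85.4 CPM at 48 h and 141 CPM at 72 h in replicates 1 to 3, but 68.2 and 79.9 CPM in replicates 4 and 5. Dnajb9 averaged 17.6 and 31.7 CPM, and 13.8 and 18.7 CPM, in the same order. Over 20 alternative runs Sec61b ran from 0.14 to 0.72 and lost its call in 2, while Dnajb9 ran from 0.31 to 0.85 and kept it. Without DMSO-sEV replicate 2 of 48 h, Eif2ak3, at -0.32 with all libraries, was not called, nor was Creld2 without DMSO-sEV replicate 1 of 48 h. Pdia6, P4hb and Ssr1 each lost the call without any of 5 or 6 of the 10 libraries, at both times (adjusted p 0.0521 to 0.12). Transcript length and the log2 fold change over time had a Spearman correlation of -0.46 over the members and -0.43 over all genes in these cells.

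In adherent 27HC-sEV cells, 5 members were higher at 72 h than at 48 h and 0 lower, against 6.58% and 6.54% of all genes. By edgeR at an unadjusted p under 0.05, 9 were higher and 0 lower, and DESeq2 called 5 higher and 0 lower. Edem3 had 61.9, 46.7, 49.3, 45.5 and 41.3 CPM at 72 h and 43.8, 31.8, 33.2, 36.6 and 39.8 CPM at 48 h, so that it rose while the groups still overlapped (0.40, SE 0.0948, adjusted p = 0.00416). Ero1a (0.38, SE 0.0890, adjusted p = 0.00441) and Crebrf (0.31, SE 0.0503, adjusted p = 7.56e-05) rose with the libraries apart, and Ern1 (0.29, adjusted p = 0.00612) and Atf6 (0.28, adjusted p = 0.0267) completed the 5. Atf6 lost its call without replicate 2, 3 or 5 of 48 h or replicate 1 or 3 of 72 h (adjusted p 0.0556 to 0.106). Since the 72 h DMSO-sEV libraries enter both the comparison of vesicles at 72 h and that over time, the values are set side by side and not combined.

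Non-adherent cells were compared with adherent cells under the same 27HC-sEVs to ask how the fractions differ. One measure moved with this comparison throughout. The correlation of a library's deviation with transcript length was 0.390 to 0.564 in non-adherent 27HC-sEV libraries and -0.470 to 0.279 in adherent 27HC-sEV libraries at 48 h. At 72 h the values were 0.334 to 0.353 and -0.263 to 0.238. Across the members, log2 fold change and transcript length had a Spearman correlation of 0.73 at 48 h and 0.57 at 72 h (0.49 and 0.45 over all genes), as a description of genes that share libraries. Values with per-library offsets for length and GC content are therefore given for the called members. Fibroblast markers summed to 24.4 to 34.7 CPM in non-adherent and 13.0 to 18.9 CPM in adherent 27HC-sEV cells at 48 h, and to 23.5 to 32.8 and 18.7 to 23.7 CPM at 72 h, where the ranges overlap. Pdgfra again carried the sum, Col1a1 averaged 0.148 CPM in non-adherent and 0.250 CPM in adherent cells at 48 h, and the part of these markers was not tested.

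At 48 h, 10 members were higher and 5 lower in non-adherent cells, against 25.7% of all genes higher and 28.4% lower, with a median log2 fold change of 0.062 (0.004 over all genes). The higher ones were 4 sensors and regulators, 4 degradation genes, Hyou1 and Sec24d. Creb3l2 had 27.4, 27.2, 27.6, 19.4 and 28.8 CPM in non-adherent and 15.7, 14.1, 14.2, 15.4 and 14.5 CPM in adherent cells. The groups did not overlap, with replicate 4 the lowest of the non-adherent libraries, and the log2 fold change was 0.82 (SE 0.0917, adjusted p = 5.37e-08), or 0.51 with the offsets. Ern1 had 69.6, 65.5, 64.5, 57.8 and 69.5 CPM in non-adherent and 51.2, 38.9, 43.04, 47.6 and 47.4 CPM in adherent cells. These groups were apart too, at 0.52 (SE 0.0725, adjusted p = 2.06e-06), or 0.21 with the offsets (adjusted p = 0.00155). Syvn1 had 45.5, 40.5, 44.8, 38.95 and 44.6 CPM in non-adherent and 35.99, 28.6, 28.1, 30.8 and 25.7 CPM in adherent cells. It did not overlap either and stood at 0.52 (SE 0.0885, adjusted p = 2.86e-05), or 0.27 with the offsets. Edem1 had 117, 109, 106, 91.1 and 115 CPM in non-adherent and 89.5, 78.5, 74.3, 78.5 and 71.01 CPM in adherent cells, again apart, at 0.46 (SE 0.0801, adjusted p = 4.41e-05), or 0.30 with the offsets. Edem3 was higher at 0.60, Crebrf at 0.32 and Sec24d at 0.22, or 0.50, 0.30 and 0.16 with the offsets.

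The 5 members that were lower at 48 h belong to several roles. Sec61b had 50.7, 56.5, 57.01, 57.2 and 41.7 CPM in non-adherent and 77.2, 96.8, 97.8, 81.2 and 74.5 CPM in adherent cells. The groups did not overlap, and the log2 fold change was -0.70 (SE 0.149, adjusted p = 0.00036), or -0.33 with the offsets. Herpud1 had 46.02, 40.9, 36.95, 44.8 and 42.8 CPM in non-adherent and 68.7, 64.5, 55.97, 59.3 and 50.4 CPM in adherent cells, apart at -0.50 (SE 0.0989, adjusted p = 0.000173), or -0.34 with the offsets. With a mean of 42.3 ± 3.56 CPM it lay above the 27.9 ± 3.84 CPM of adherent DMSO-sEV cells at 48 h, a difference that was not tested. P4hb had 641, 629.7, 636, 604 and 604 CPM in non-adherent and 846, 951, 869.8, 850.0 and 729.5 CPM in adherent cells, apart at -0.45 (SE 0.120, adjusted p = 0.00287), or -0.50 with the offsets. Creb3 had 17.7, 17.3, 17.5, 16.2 and 17.8 CPM in non-adherent and 24.04, 24.3, 20.9, 24.3 and 18.6 CPM in adherent cells. Its groups did not overlap, at -0.37 (SE 0.117, adjusted p = 0.00862), or -0.22 with the offsets. Sdf2l1, a BiP cofactor, was lower at -0.49 (adjusted p = 0.0104), with overlapping libraries.

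Hspa5, Xbp1 and Eif2ak3 did not pass the test at 48 h. Hspa5 had 1890.1, 1679, 1763, 1665 and 1720.4 CPM in non-adherent cells, below most adherent libraries, at -0.24 (SE 0.111, adjusted p = 0.0729). Xbp1 had 133, 132, 127, 125 and 123 CPM in non-adherent cells, at 0.078 (SE 0.0726, adjusted p = 0.378), and Eif2ak3 had 47.2, 37.8, 37.1, 34.9 and 46.3 CPM, at 0.15 (SE 0.101, adjusted p = 0.203). Both overlapped with the adherent libraries. Atf6 had 138, 124, 124, 105 and 140.1 CPM in non-adherent cells and was called at 0.27 (SE 0.0855, adjusted p = 0.00965), but not with the offsets (0.046, adjusted p = 0.739). The calls of Hyou1 (0.29, 0.089 with the offsets), Sel1l (0.28, 0.073 with the offsets) and Sdf2l1 (-0.22 with the offsets) were lost in the same way. Hsp90b1, Creld2, Pdia4, Pdia6 and Xbp1 were called higher with them (0.20 to 0.32). Hyou1 also lost its call without adherent replicate 3 or 5 or non-adherent replicate 1 (adjusted p 0.057 to 0.068), and Sel1l without adherent replicate 2, 3 or 5 or non-adherent replicate 1 or 5 (adjusted p 0.063 to 0.0816).

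**Figure D5:**
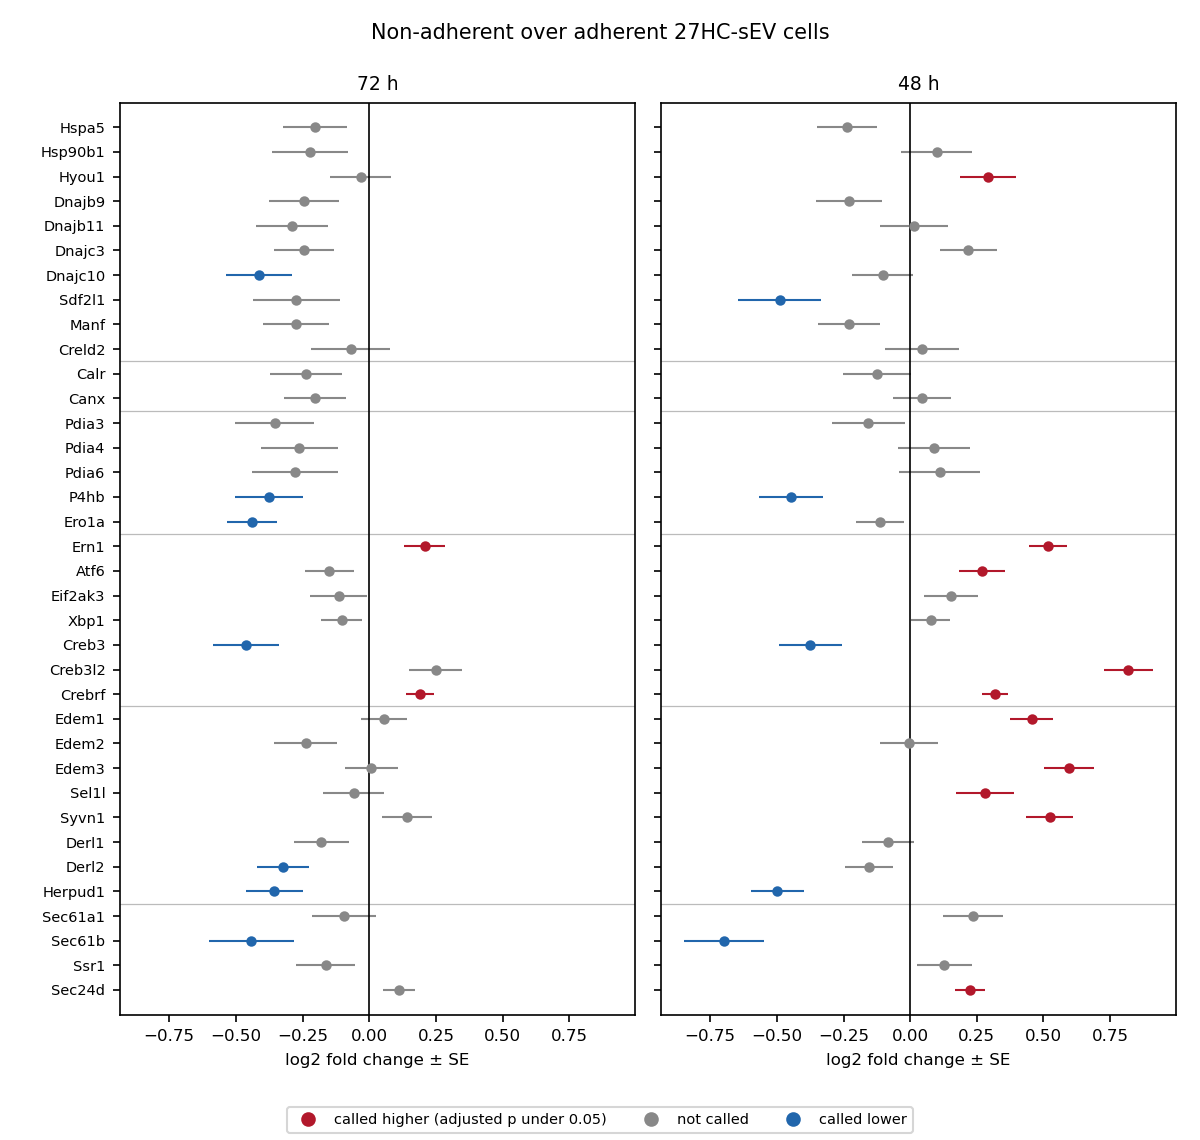
Points are log2 fold changes of non-adherent over adherent cells, both given 27HC-sEVs, for the 36 members at 72 h on the left and 48 h on the right, with bars of ±1 SE; red points were called higher and blue points lower at an adjusted p under 0.05, and grey points were not called. At 72 h most points lie between 0 and -0.46, and at 48 h Creb3l2 is highest at 0.82 and Sec61b lowest at -0.70.

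At 72 h, 2 members were higher and 7 lower in non-adherent cells, against 14.7% of all genes higher and 12.8% lower, with a median log2 fold change of -0.213 (0.003 over all genes). The libraries of the groups were apart for 18 members that stood lower (16.3% of all genes), most of which did not pass the test. Ero1a had 149, 151, 154 and 170.2 CPM in non-adherent and 224, 219, 219, 205 and 191 CPM in adherent cells. The groups did not overlap, and the log2 fold change was -0.44 (SE 0.0950, adjusted p = 0.00211), a level 1.36-fold lower. Creb3 had 18.2, 17.8, 18.6 and 19.3 CPM in non-adherent and 23.4, 27.8, 26.1, 25.3 and 24.4 CPM in adherent cells. Dnajc10, which reduces disulfides of degradation substrates, had 155, 155, 153 and 159 CPM in non-adherent and 209.5, 221, 209, 199 and 198 CPM in adherent cells. Both were apart, at -0.46 (SE 0.124, adjusted p = 0.01) for Creb3 and -0.41 (SE 0.123, adjusted p = 0.0169) for Dnajc10. Sec61b had 52.3, 59.1, 56.6 and 46.8 CPM in non-adherent and 63.4, 76.5, 70.3, 75.2 and 79.8 CPM in adherent cells, at -0.44 (SE 0.159, adjusted p = 0.0398). P4hb (-0.38, adjusted p = 0.0315), Herpud1 (-0.36, adjusted p = 0.0169) and Derl2 (-0.32, adjusted p = 0.0174) were lower as well.

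Crebrf had 91.3, 90.8, 89.7 and 86.2 CPM in non-adherent and 76.5, 73.2, 79.3, 82.7 and 80.9 CPM in adherent cells at 72 h. It was apart and higher, at 0.19 (SE 0.0529, adjusted p = 0.0125). Ern1 had 61.8, 62.3, 67.9 and 66.99 CPM in non-adherent and 64.1, 52.03, 53.99, 56.9 and 53.1 CPM in adherent cells, overlapping, at 0.21 (SE 0.0764, adjusted p = 0.0432). With the offsets Ern1 stood at 0.012 (adjusted p = 0.896), while Crebrf (0.20) and the 7 lower members kept their calls. These stood at -0.40 for P4hb, -0.36 for Creb3, -0.35 for Dnajc10, -0.35 for Ero1a, -0.26 for Sec61b, -0.25 for Herpud1 and -0.25 for Derl2 with the offsets. Hspa5 had 1706, 1769, 1815 and 1912 CPM in non-adherent cells, below all adherent libraries. It did not pass the test in the fit of all 6 groups (-0.20, adjusted p = 0.186), and 2 of 17 alternative runs called it lower. Eif2ak3 had 32.2, 35.6, 36.5 and 38.7 CPM, Xbp1 123, 123, 129 and 131 CPM and Atf6 108, 112, 113 and 126 CPM in non-adherent cells. These 3 overlapped with the adherent libraries and were not called (log2 fold changes -0.11, -0.10 and -0.15).

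Several calls at 72 h lay near the threshold and were lost when single libraries were left out. Ern1 lost its call without any of adherent replicates 2 to 5 or any non-adherent library (0.18 to 0.23, adjusted p 0.0563 to 0.112), Sec61b without those libraries too (-0.49 to -0.38, adjusted p 0.0501 to 0.113), P4hb without adherent replicate 2 or 5 or any non-adherent library (adjusted p 0.054 to 0.0754), Derl2 without non-adherent replicate 1 (adjusted p = 0.0552) and Herpud1 without non-adherent replicate 3 (adjusted p = 0.0504). Without non-adherent replicate 1 or 3, 4 members were called lower. With the libraries of these 2 groups alone in the fit, 22 were (23.4% of all genes).

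The difference between non-adherent and adherent cells changed with time for 4 members, all toward lower values at 72 h (3.41% of all genes), and 0 members went the other way (1.18%). By edgeR at an unadjusted p under 0.05 these counts were 10 and 0, and DESeq2 called 4 and 0. Edem3 (-0.59, SE 0.138, adjusted p = 0.0111), Creb3l2 (-0.57, SE 0.135, adjusted p = 0.0124) and Edem1 (-0.40, SE 0.117, adjusted p = 0.0446) had the smallest adjusted p-values, followed by Atf6 (-0.42, adjusted p = 0.0498). Over 27 alternative runs Edem1 ran from -0.45 to -0.33 and lost its call in 18, while Edem3 and Creb3l2 kept theirs. Within non-adherent cells, 1 member was higher and 3 lower at 72 h than at 48 h, against 5.7% of all genes higher and 6.91% lower. Creb3l2 had 15.5, 18.4, 17.2 and 18.6 CPM at 72 h and 27.4, 27.2, 27.6, 19.4 and 28.8 CPM at 48 h. It fell without overlap, at -0.58 (SE 0.0973, adjusted p = 0.000146). Edem1 (-0.30, SE 0.0852, adjusted p = 0.0184) and Dnajc3 (-0.34, SE 0.114, adjusted p = 0.049), which is known as an inhibitor of PERK, were the other lower members, and Crebrf (0.18, SE 0.0529, adjusted p = 0.0242) was the higher one. Dnajc3 lost its call without any library of 72 h or any of replicates 1, 2, 3 and 5 of 48 h (adjusted p 0.0615 to 0.135). Edem1 lost it without replicate 1 or 3 of 72 h or 1 or 5 of 48 h (adjusted p 0.0519 to 0.0552), and Crebrf without replicate 1, 2 or 3 of 72 h or 3 or 4 of 48 h (adjusted p 0.0539 to 0.0745).

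Other genes of the same pathways were read from 5 lists, of which 118 of 123 genes were tested. Of 18 other signalling genes, 9 were higher and 3 lower in adherent 27HC-sEV cells against adherent DMSO-sEV cells at 48 h (median log2 fold change 0.285), and 11 and 1 at 72 h (0.347). Ddit3 (CHOP) and Atf3, transcription factors of the PERK arm, led both times, at 3.29 and 2.67 at 48 h and 2.33 and 1.67 at 72 h. Tmbim6, a membrane protein that dampens Ern1, was lowest at 48 h (-0.58), with Mbtps1, the protease that cleaves Atf6, at -0.23, and Eif2s1, which encodes eIF2α, was lowest at 72 h (-0.84). In non-adherent against adherent cells, 3 of the 18 were higher and 10 lower at 48 h (-0.332), and 4 were lower at 72 h (-0.10). Ddit3 (-0.77) and Trib3 (-0.73) were lowest and Wfs1 (0.44) and Mbtps1 (0.40) highest at 48 h, and Hspa13 (-0.50) and Eif2s1 (-0.45) lowest at 72 h.

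Of 31 other folding genes, 4 were higher and 5 lower in adherent 27HC-sEV cells at 48 h, and 15 and 6 at 72 h (median 0.348). Ero1b, the second oxidase, led at both times (0.81 and 1.7), followed by Fkbp14 at 48 h (0.41) and Txndc5 at 72 h (0.88). Fkbp11, a prolyl isomerase, was lowest at both (-0.60 and -1.03), with Mogs at -0.56 at 48 h and Mesd at -0.45 at 72 h. In non-adherent cells 9 were higher and 4 lower at 48 h, from Uggt1 (0.76), the glycoprotein folding sensor, and Dnajc1 (0.43) to Sdf2 (-0.44) and Cnpy2 (-0.47). At 72 h 5 were lower, with Tmx1 at -0.55 and Nucb2 at -0.48.

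Of 22 other degradation genes, 5 were higher and 3 lower in adherent 27HC-sEV cells at 48 h, led by Rnf185 (0.48) and Erlec1 (0.42), with Vcp (-0.38), the ATPase that extracts substrates, and its inhibitor Svip (-0.39) lowest. At 72 h 10 were higher, led by the lectin Os9 (1.04) and the ligase Marchf6 (0.79), and 5 lower, with Svip at -0.92 and Ngly1 at -0.32. In non-adherent cells the counts were 4 and 3 at 48 h, from Marchf6 (0.50) and Vcp (0.20) to Trim13 (-0.31) and Svip (-0.58), and 3 were higher at 72 h, led by Vcp (0.31) and Nploc4 (0.25).

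Of 26 other genes of the translocon, signal peptidase and oligosaccharyltransferase, 3 were lower in adherent 27HC-sEV cells at 48 h, with Tram2 (-0.68) and Rpn2 (-0.33) lowest. At 72 h 5 were higher and 10 lower, from Sec63 (0.68) and Stt3b (0.64) to Ostc (-0.77) and Sec61g (-0.91), the second small Sec61 subunit. In non-adherent cells 2 were higher and 10 lower at 48 h, with Tram2 (0.35) and Sec61a2 (0.18) highest and Ssr4 (-0.79) and Sec61g (-0.78) lowest, and 9 were lower at 72 h, with Spcs3 (-0.59) and Tusc3 (-0.55) lowest. Of 21 other COPII export genes, 4 were higher and 3 lower in adherent 27HC-sEV cells at 48 h, with Sec23a (0.35) and Kdelr3 (0.33) highest and Surf4 (-0.25) and Lman2 (-0.33) lowest. At 72 h 12 were higher and 3 lower (median 0.276), from the cargo receptors Mia3 (1.1) and Mia2 (0.57) to Sec13 (-0.51) and Sar1b (-0.70). In non-adherent cells the counts were 7 and 2 at 48 h, from Sec16a (0.50) and Mia3 (0.48) to Sec13 (-0.44) and Sar1b (-0.65), and 5 and 1 at 72 h, with Sec16a (0.34) and Sec24a (0.29) higher and Sar1b (-0.49) lower.

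The related lists were read against either DMSO-sEV set as well, in adherent 27HC-sEV cells. Against replicates 1 to 3 at 48 h, 9 signalling genes were higher and 4 lower, and 1 folding gene was higher and 19 lower, with 6 and 7 degradation genes, 0 and 16 translocon genes and 7 and 7 export genes. Against replicates 4 and 5 at 48 h these counts were 10 and 0, 11 and 1, 6 and 3, 7 and 0, and 6 and 3. At 72 h they were 11 and 4, 14 and 11, 9 and 6, 5 and 16, and 9 and 3 against replicates 1 to 3. Against replicates 4 and 5 at 72 h they were 14 and 1, 24 and 1, 13 and 3, 17 and 0, and 15 and 1. Ddit3 and Atf3 stood at 3.23 and 2.68 against replicates 1 to 3 at 48 h, and at 3.39 and 2.68 against replicates 4 and 5. Of the 18 related genes named at 48 h, Fkbp14 was not called against replicates 1 to 3, and Tmbim6, Mbtps1, Fkbp11, Rpn2, Tram2, Surf4 and Lman2 were not called against replicates 4 and 5 (-0.39 to -0.0053). Of the 19 named at 72 h, all were called the same way against replicates 1 to 3, and Mesd (0.12), Ngly1 (-0.14), Ostc (-0.20), Sec61g (-0.30), Sec13 (-0.13) and Sar1b (-0.15) were not called against replicates 4 and 5.

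With the length and GC offsets, 14 of the 20 related genes named in non-adherent against adherent cells at 48 h were called the same way. Wfs1 (0.19), Mbtps1 (0.10), Sdf2 (-0.12), Trim13 (0.038), Tram2 (0.077) and Sec16a (0.062) were not. Ssr4 stood at -0.72, Sec61g at -0.49 and Sar1b at -0.24 with the offsets. The signalling list then had 2 higher and 8 lower, the folding list 11 and 1, the degradation list 8 and 1, the translocon list 2 and 4 and the export list 9 and 2. At 72 h 8 of 11 were called the same way, and Nucb2 (-0.26), Nploc4 (0.15) and Sec16a (0.066) were not. The lists then had 0 and 5, 0 and 3, 4 and 1, 0 and 5, and 4 and 1 in the same order. In adherent 27HC-sEV against DMSO-sEV cells the offsets ended 1 call of a named related gene, that of Ngly1 at 72 h (-0.034). The lists are read against the same shares of all genes as the members, which hold for the main fit alone. For their counts against either DMSO-sEV set and with the offsets, the shares of all genes are not given here. Nothing particular to the lists is drawn from any of these counts.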

How the data were processed

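RNA of the 29 libraries was made into poly-A mRNA libraries with the Kapa HyperPrep kit, per the labels' protocols. The authors deposited gene-level estimated counts (Salmon 1.10.0 and GRCm39 or mm39, per the submitters' processing notes) and a table of TMM-normalized log2 CPM, which was used in 1 alternative. One non-adherent 72 h library was removed by the submitters as an outlier, per the labels. Counts were rounded (40.8% of values were not whole) and tested with edgeR 4.0.16 in R 4.3.3 (filterByExpr with a minimum count of 10 and a minimum total of 15, TMM factors, robust quasi-likelihood fit of all 6 groups, two-sided). P-values were adjusted by Benjamini-Hochberg over 13008 genes, with a threshold of 0.05. SE is the log2 fold change divided by the root of F. The fit was tested on simulated data. Alternatives used DESeq2 1.42.0, limma 3.58.1, other factors, filters, samples and fits, and offsets fitted on the longest GENCODE M21 transcript per symbol (12394 genes matched), the length also used for CPM per kb.

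The members and the related lists were chosen with earlier results of these data known. All 36 members are named. Values of every library are given for Hspa5, Xbp1, Ern1, Atf6 and Eif2ak3 and for up to 4 called members with the largest changes each way whose groups did not overlap. Between times the 3 largest called changes each way, for differences between times the 3 smallest adjusted p-values, and from each related list the 2 largest called changes each way are named. No 2 libraries were identical (highest correlation 0.994). The depth of 18.8 to 31.4 M reads limits the precision of low genes.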

Additional observations from a re-analysis of the deposited data

Results flagged for a closer look

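In 8 of 216 tests of single libraries within a group (about 1 in 20 would do so by chance), the highest or lowest library stood apart from its own group. Non-adherent 27HC-sEV replicate 4 at 48 h was the lowest of its group for Dnajc10 (164 CPM, the next library 197), Creb3 (16.2, the next 17.3) and Creb3l2 (19.4, the next 27.2). Among non-adherent libraries at 72 h, replicate 4 was highest for Edem1 (91.4 CPM, the next 86.5) and replicate 1 lowest for Derl2 (37.3, the next 40.6). Adherent 27HC-sEV replicate 1 at 48 h was highest for Eif2ak3 (46.3 CPM, the next 36.3). In DMSO-sEV cells, replicate 3 at 72 h was highest for Edem3 (22.9 CPM, the next 21.6) and replicate 5 at 48 h lowest for Edem1 (75.6, the next 92.9).

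For 21 members the difference between adherent 27HC-sEV and adherent DMSO-sEV cells was itself different between the times by edgeR's test. The log2 fold change at 72 h exceeded that at 48 h for Edem3 (by 1.32), Sel1l (1.06), Hyou1 (1.04), Syvn1 (0.90), Dnajb11 (0.83), Sec61a1 (0.82), Ern1 (0.75), Atf6 (0.74), Edem1 (0.72), Dnajc3 (0.66), Canx (0.62), Hsp90b1 (0.61), Creld2 (0.56), Pdia6 (0.54), Ero1a (0.53), Creb3l2 (0.51), Eif2ak3 (0.40) and Sec24d (0.30). It was lower at 72 h for Sec61b (-0.79), Crebrf (-0.66) and Dnajb9 (-0.47). For the difference between non-adherent and adherent cells, the value at 72 h was below that at 48 h for Edem3 (-0.59), Creb3l2 (-0.57), Atf6 (-0.42) and Edem1 (-0.40). Of these, Edem1 lost its call in 18 of 27 alternative runs, and Atf6 lay at an adjusted p of 0.0498 by edgeR's test.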

How the results depend on the processing

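Of the members named with values of every library or as the largest changes, none changed sign among 1139 recomputed fold changes, 81 lost a call and 8 gained one. Of 374 recomputed counts of members, 300 stayed within 1.5 times the reported count. Called in every alternative run were 7 higher and 1 lower for adherent cells at 48 h, 21 higher at 72 h, 7 higher and 4 lower for non-adherent cells at 48 h, and 3 lower at 72 h. RLE factors gave 1 higher for non-adherent cells at 72 h. Without a filter except 1 count, adherent cells at 72 h had 1 lower, non-adherent cells at 72 h 0 higher, time in non-adherent cells 0 higher, and the non-adherent difference between times 2 lower. Same-numbered deviations correlated at -0.1 to 0.37, and in no comparison did every pair exceed 0.1, so the numbers were not taken to pair the samples. For time in DMSO-sEV cells 4 of 5 pairs did, 3 of 5 libraries correlated best with their own number, and a replicate block gave 4 higher and 20 lower. With the block the lower counts were 5 for adherent cells at 48 h, 21 for non-adherent cells at 72 h, 6 for time in non-adherent cells and 7 for their difference between times. Length and GC offsets gave 1 higher for non-adherent cells at 72 h, 1 lower over time in adherent 27HC-sEV cells, and 2 higher and 1 lower over time in non-adherent cells. Against DMSO-sEV replicates 1 to 3, 16 were lower at 48 h and 7 at 72 h, and 7 were higher over time in DMSO-sEV cells. Against replicates 4 and 5, 18 were higher and 1 lower at 48 h and 0 lower at 72 h, with 2 higher over time and 1 lower in the difference between times. With only the groups compared, the lower counts were 1 for adherent cells at 72 h, 9 and 22 for non-adherent cells at 48 and 72 h, and 12 for their difference between times, and time in non-adherent cells gave 3 higher and 10 lower. Limma-trend on the deposited log2 CPM gave 1 lower for adherent cells at 72 h and 2 lower for the non-adherent difference between times. The cause of these shifts was not tested.

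Leaving out 1 library at a time, the lower count ran from 1 to 6 for adherent cells at 48 h and from 1 to 4 at 72 h. For non-adherent cells at 72 h it ran from 4 to 7, with 1 to 3 higher. For time in non-adherent cells it ran from 1 to 4, with 0 to 1 higher, and for the non-adherent difference between times from 2 to 6.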
